A study of Mus musculus with 12 samples.

Results

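Mitosis and G2/M genes are the transcripts that cells make late in the cell cycle to condense chromosomes, build the spindle, check kinetochore attachment, separate sister chromatids and divide. A list of 51 such genes was followed by name through MC38 cells treated with a MEK inhibitor, and 50 of them were measured among the 18193 genes with a probe set of their own. Cyclin B1 (Ccnb1) had no probe set assigned to that symbol alone in the annotation used and was not analysed here. MC38 is a mouse colon carcinoma cell line grown as a monolayer. The cells were kept for 24 h or 72 h in GDC-0623, a MEK inhibitor, at 100 nM, or in as much of its solvent DMSO, with no immune cells and no other agent. The 24h and 72h groups of each treatment held 3 arrays each. The labels do not say whether the 3 came from separate cultures, so the tests measure the spread between arrays, which may be technical. The values are log2 intensities of Affymetrix Mouse Genome arrays, 1 probe set per gene, and a difference of 1 is a doubling. Every epithelial marker checked (10 of 10, Epcam and Cdh1 among them) had all group means under 6, with the highest at 5.90, whereas 4 of 6 mesenchymal markers had group means above it, the intermediate filament Vim standing highest at 13.6 in 24h DMSO, and Thy1 and Col1a1 had all means under 6. The mean of these 6 moved with the drug, from 7.77 to 7.94 in 24h DMSO to 8.39 to 8.47 in 24h GDC-0623 and from 8.05 to 8.12 in 72h DMSO to 8.68 to 8.81 in 72h GDC-0623. Pdgfrb (2.15 and 1.29) and Col1a2 (1.45 and 1.49) rose at 24 h and 72 h and Col1a1 (0.91) rose at 72 h, and their part in the results below was not tested. Leukocyte and endothelial markers reached at most 6.26 and 4.87.

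Entry into mitosis is driven by Cdk1 bound to cyclins A2 and B, which the phosphatases Cdc25b and Cdc25c switch on and which Plk1 and the Aurora kinases extend to the centrosomes, kinetochores and midzone. The spindle checkpoint (Bub1, Bub1b, Bub3, Mad2l1, Ttk) holds the anaphase-promoting complex (APC/C) with its activator Cdc20 until all chromosomes are attached. The APC/C then marks securin (Pttg1) for destruction, which frees separase (Espl1) to cut cohesin. Most of these genes share a cell cycle programme in which the DREAM complex keeps them off in resting cells, and B-Myb, Foxm1 and NF-Y switch them on in G2. In proliferating tumor lines the RAS, MEK and ERK pathway acts mainly earlier, at the decision to enter S phase. In whole cultures, fewer cells in G2 and mitosis and less of a transcript in each such cell cannot be told apart.

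The members also shared promoter sequence, which the choice of genes did not use. Of the 51, 42 had an entry in the RefSeq promoter table (GRCm38.p6), and the 250 bases before the annotated start were searched on both strands for the cell cycle genes homology region (CHR, TTTGAA, a DREAM docking element) and the CCAAT box (the letters CCAAT, bound by NF-Y). Matches of the 2 motifs overlapped in 0 cases. At least 1 CCAAT was found for 32 of 42 genes (76.2%) against 37.5% of all 27025 genes in the table, and at least 2 for 20 genes (47.6%) against 11.5%. The CHR was found for 15 genes (35.7%) against 18.3%, and both motifs for 14 (33.3%) against 6.45%. Among the 14369 genes of the table with a probe set on the array these shares were 39.4%, 13.4%, 14.1% and 5.08%. A match is a string of letters and not a measured binding site.

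The 150 bases before the start are printed for the 7 members called at 72 h and for Nusap1 and Cdk1, to show how the motifs sit in genes that rose, fell or did not pass the test. Capitals mark a CCAAT box (ATTGG on the other strand) or a CHR (TTTGAA). On GRCm38.p6 the stretches are chr11:43425982-43426131 (minus strand) for Pttg1, chr2:119618148-119618297 (plus) for Nusap1, chr2:127831860-127832009 (minus) for Bub1, chr2:172370571-172370720 (minus) for Aurka and chr5:30666736-30666885 (plus) for Cenpa. The others are chr9:61946800-61946949 (minus) for Kif23, chr5:45669775-45669924 (plus) for Ncapg, chr15:102296143-102296292 (plus) for Espl1 and chr10:69352913-69353062 (minus) for Cdk1.
Pttg1: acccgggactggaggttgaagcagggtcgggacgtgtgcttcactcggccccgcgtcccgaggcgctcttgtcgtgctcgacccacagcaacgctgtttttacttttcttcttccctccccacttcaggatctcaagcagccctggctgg
Nusap1: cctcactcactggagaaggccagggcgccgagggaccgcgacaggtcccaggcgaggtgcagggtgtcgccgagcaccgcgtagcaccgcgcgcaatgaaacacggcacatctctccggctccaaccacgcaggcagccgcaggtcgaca
Bub1: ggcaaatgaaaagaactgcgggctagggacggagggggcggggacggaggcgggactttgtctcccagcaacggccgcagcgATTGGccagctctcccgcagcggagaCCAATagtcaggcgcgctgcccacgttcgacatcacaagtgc
Aurka: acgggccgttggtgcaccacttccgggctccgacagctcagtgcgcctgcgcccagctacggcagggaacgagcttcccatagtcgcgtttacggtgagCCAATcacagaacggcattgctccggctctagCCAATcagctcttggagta
Cenpa: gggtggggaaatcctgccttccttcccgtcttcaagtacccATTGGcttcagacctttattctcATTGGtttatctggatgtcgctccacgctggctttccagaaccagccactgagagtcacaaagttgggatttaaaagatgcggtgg
Kif23: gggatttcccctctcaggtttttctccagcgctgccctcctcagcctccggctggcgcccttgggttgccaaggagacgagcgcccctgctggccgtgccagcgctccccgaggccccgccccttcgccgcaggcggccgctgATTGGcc
Ncapg: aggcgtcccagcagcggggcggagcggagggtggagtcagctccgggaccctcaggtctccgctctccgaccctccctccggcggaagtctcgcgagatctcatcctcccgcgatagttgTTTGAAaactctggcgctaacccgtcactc
Espl1: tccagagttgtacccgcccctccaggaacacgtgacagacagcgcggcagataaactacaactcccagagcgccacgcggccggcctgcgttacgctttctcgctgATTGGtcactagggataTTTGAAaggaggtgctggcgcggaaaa
Cdk1: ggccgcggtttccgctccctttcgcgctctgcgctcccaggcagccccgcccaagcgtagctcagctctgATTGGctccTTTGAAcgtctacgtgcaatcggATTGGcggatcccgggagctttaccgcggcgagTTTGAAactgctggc
Pttg1 and Nusap1, with the largest rise at 72 h and at 24 h respectively, had neither motif within the 250 bases. They were among 9 members without a match to either, the others being Anln, Birc5, Mad2l1, Melk, Ncaph, Ndc80 and Nuf2. Cdc25b and Spc25, the other members called higher at 24 h, had 1 and 2 CCAAT boxes and no CHR, so the members that rose did not all lack a motif. Bub1, Aurka and Cenpa each had 2 CCAAT boxes and no CHR, whereas Cdk1 had 2 CHR matches and 3 CCAAT boxes. Ncapg and Espl1 each had a CHR within 30 bases of the start.

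One array stood apart from its group. Averaged over the 50 genes, the arrays read 10.08, 10.11 and 10.08 in 24h DMSO, 10.03, 10.12 and 10.09 in 24h GDC-0623, 9.94, 9.95 and 9.96 in 72h DMSO, and 9.49, 9.86 and 9.86 in 72h GDC-0623. The lowest value, 9.49, was 72h GDC-0623 replicate 1. It gave the lowest reading of its group for 49 of 50 members (98%), with Pttg1 as the exception, against 36.7% of all genes. Its median gap to the mean of the other 2 arrays was −0.38 over the members and 0 over all genes. The median standard deviation of a member was 0.222 in 72h GDC-0623 and 0.0416 to 0.0688 in the other groups. On the first principal component of all probe sets tested it lay at 77.4, and replicates 2 and 3 of its group at 44.8 and 49.8. The hybridization controls (mean 10.32, with 10.12 to 10.43 over all arrays) and the 3′ to 5′ difference of actin (0.10, with 0.09 to 0.16) did not set this array apart. Median intensity (4.67, with 4.63 to 4.69 over all arrays) could not do so, because the normalisation of the deposited values evens it out. The part of this array in the results at 72 h is given below by leaving it out.

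**Figure D1:**
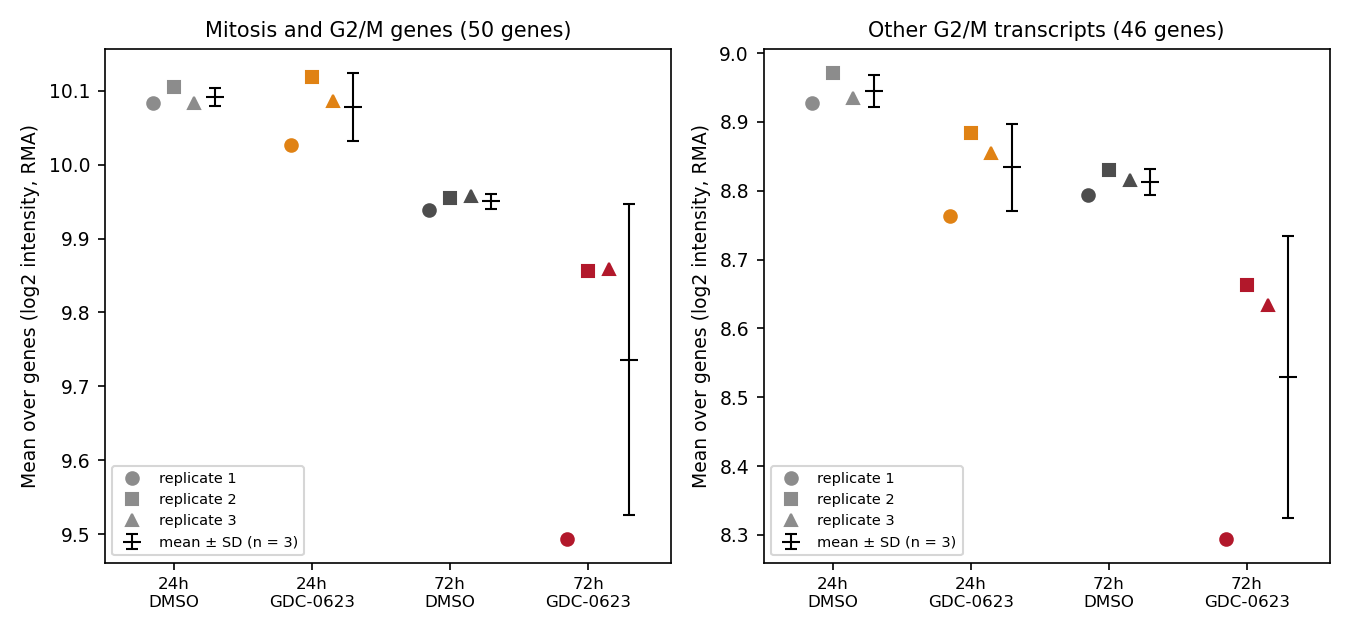
Mean log2 intensity (vertical axis) over the 50 mitosis and G2/M genes (left) and over 46 other G2/M transcripts (right) on each of the 12 arrays, by group (horizontal axis). Symbols are replicates 1 to 3, and bars are the mean ± SD of 3 arrays. On the left, 72h GDC-0623 lies between 9.49 and 9.86, under all 72h DMSO arrays at 9.94 to 9.96, and replicate 1 lies farthest down.

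After 24 h a few members moved each way, and the probe sets read for the rest changed by −0.20 to 0.19. The median log2 change, GDC-0623 minus DMSO, was −0.02, with −0.03 over all genes. Its sign rests on the scaling, since shifting each array by its hybridization controls raised the change of every probe set by 0.151 and gave a median of 0.13. Of 50 members, 4 rose (Nusap1, Pttg1, Cdc25b and Spc25) and 2 fell (Aurkb and Bub1) at an adjusted p under 0.05 (limma, Benjamini-Hochberg over all probe sets). Among all genes 13.3% were called higher and 8.23% lower, so the members' 8% and 4% were not above the background. All 3 treated arrays lay above all 3 DMSO arrays for 10 members (background 21.2% of genes) and below them for 14 (background 20%). Some probe sets not read here passed lower for members outside these calls. They belonged to Cenpf (−0.64, adjusted p = 0.000817), Ncapg (−0.40, 0.0146) and Smc2 (−0.44 and −0.45, 0.0359 and 0.0464). The probe sets read for these genes stood at −0.10, −0.11 and 0.03, and their remaining probe sets did not pass.

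Nusap1, a microtubule-bundling protein of the spindle near chromatin, had the largest change. It read 9.93, 9.87 and 9.96 in DMSO and 10.36, 10.37 and 10.25 in GDC-0623, without overlap, a rise of 0.41 ± 0.069 (SE, adjusted p = 0.00362) or 1.33-fold. Cdc25b, a phosphatase that activates Cdk1 at mitotic entry, read 8.67, 8.69 and 8.75 in DMSO and 9.04, 9.05 and 9.07 in GDC-0623. The groups were separate by more than their own width, and the change was 0.35 ± 0.065 (adjusted p = 0.00545). Spc25, a subunit of the Ndc80 complex that binds microtubules at the kinetochore, read 9.43 on all 3 DMSO arrays and 9.74, 9.75 and 9.78 with the drug. It rose by 0.33 ± 0.063 (adjusted p = 0.00675), while its partners did not pass the test: Ndc80 stood at 0.04, Nuf2 at −0.01 and Spc24 at 0.01. The second Spc25 probe set, at a mean level of 4.43, stood at −0.11 (adjusted p = 0.398), and the mean of the Spc25 probe sets did not pass.

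Pttg1, securin, read 10.44, 10.36 and 10.49 in DMSO and 10.95, 10.75 and 10.71 in GDC-0623, all treated arrays above all controls. The rise was 0.37 ± 0.083 (adjusted p = 0.0136), and without 24h DMSO replicate 2 it was 0.34 with an adjusted p of 0.0544. In contrast, Bub1, the checkpoint kinase that recruits other checkpoint proteins to kinetochores, read 10.67, 10.71 and 10.68 in DMSO and 10.32, 10.45 and 10.46 with the drug. Every treated array was below every control, and Bub1 fell by 0.28 ± 0.069 (adjusted p = 0.0237). Its second probe set fell as well (−0.38, adjusted p = 0.0257). Aurkb, the kinase of the chromosomal passenger complex, read 9.28, 9.34 and 9.25 in DMSO and 8.87, 9.10 and 9.03 in GDC-0623, and fell by 0.29 ± 0.079 (adjusted p = 0.0330). Its second probe set, at a mean level of 8.32, stood at −0.19 (adjusted p = 0.323), and the mean of the Aurkb probe sets did not pass. The Bub1 and Aurkb calls were both narrow. The Bub1 call was lost without any 1 of the 24h DMSO arrays (adjusted p = 0.0632 to 0.0777) and without GDC-0623 replicate 1 (0.0657), and the Aurkb call without any array other than GDC-0623 replicate 2 (0.0623 to 0.106).

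By role, the 24 h values split. The 5 mitotic kinases and the 5 checkpoint genes were all negative (medians −0.17 and −0.14), and 3 of each lay below DMSO without overlap, among them Aurka and Nek2, Mad2l1 and Bub3, where 20% of all genes did. These signs rest on the scaling. After the shift by hybridization controls 9 of 50 members stayed negative, Plk1, Melk, Bub1b, Bub3 and Ttk turned positive, and no member lay below DMSO without overlap. Of the 4 cytokinesis genes, 3 (Anln, Racgap1 and Prc1) lay above DMSO without overlap, where 21.2% of all genes did, although none passed the test. Prc1, which bundles midzone microtubules, came nearest at 0.19 ± 0.063 (adjusted p = 0.0687), with 10.20, 10.24 and 10.20 in DMSO and 10.41, 10.42 and 10.39 with the drug. The passenger complex (median −0.09), kinetochore genes (−0.01), kinesins (0.02) and mitotic entry genes (0.01) had medians near 0.

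**Figure D2:**
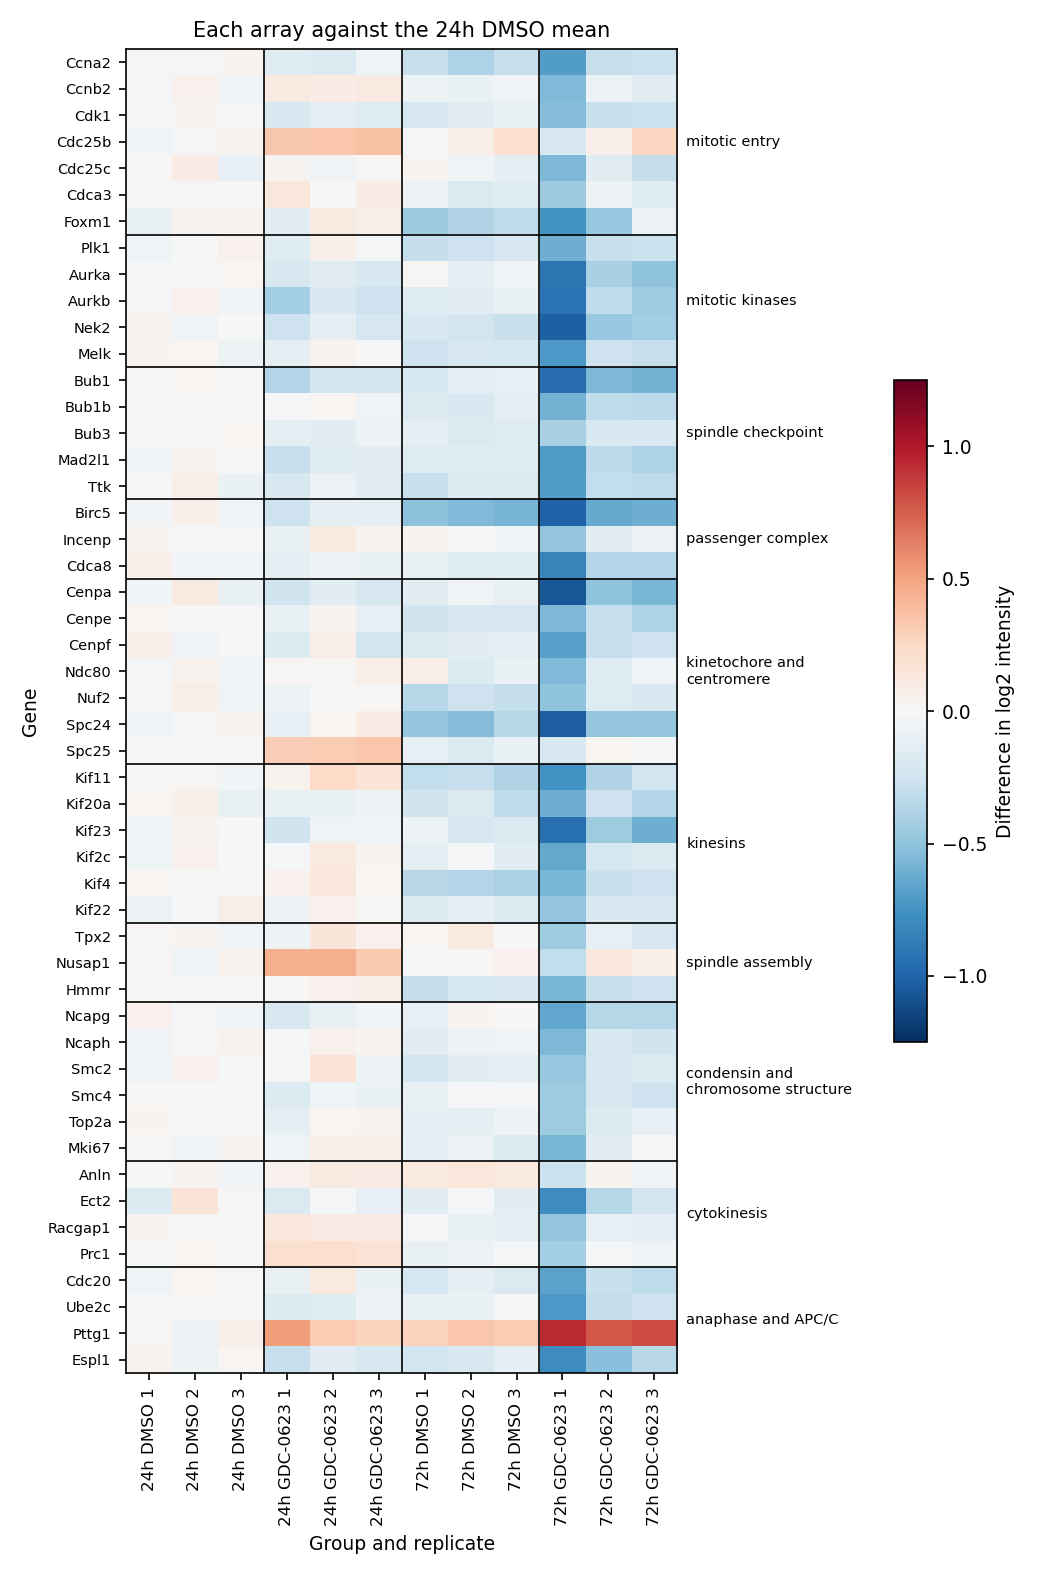
Difference in log2 intensity of each of the 50 genes (rows, grouped by role) on each array (columns, 3 per group) from that gene's 24h DMSO mean, with red above and blue below. Column 72h GDC-0623 1 is the bluest of the plot, Pttg1 is the row that stays red, and Cdc25b, Spc25 and Nusap1 are red in 24h GDC-0623.

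After 72 h most members were lower with GDC-0623 than in DMSO, by little. The median change was −0.21 against −0.03 over all genes, and 46 of 50 values were negative, against 10128 of all 18193 genes. At the same threshold 6 members fell, namely Cenpa, Aurka, Bub1, Kif23, Ncapg and Espl1, and Pttg1 rose. These are 12% and 2% of the members, against 12.4% of all genes called lower and 13.8% called higher, so the calls were no more frequent than in the rest of the array. All treated arrays lay below all controls for 28 members (56%), where the background was 23.7%, and above for Pttg1 alone, where it was 21.3%. At an unadjusted p under 0.05, 20 members were lower (40%) and 1 was higher (2%), against 19.7% and 18.8% of all genes.

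Cenpa, the histone H3 variant that marks centromeres, fell most. It read 11.00, 11.10 and 11.05 in DMSO and 10.08, 10.64 and 10.57 in GDC-0623, so that the groups were separate and replicate 1 lay about as far below the other treated arrays as those lay below DMSO. The change was −0.62 ± 0.138 (adjusted p = 0.0121), or 1.54-fold lower. Aurka, the Aurora kinase of centrosomes and spindle poles, read 10.45, 10.33 and 10.41 in DMSO and 10.03 and 9.94 in treated replicates 2 and 3, with 9.53 in replicate 1. It fell by 0.56 ± 0.126 (adjusted p = 0.0126). Bub1 read 10.47, 10.57 and 10.58 in DMSO and 9.73, 10.13 and 10.10 with the drug. It fell by 0.55 ± 0.113 (adjusted p = 0.00808) and its second probe set by 0.78 (adjusted p = 0.0104). Bub1 was thus called lower at both times.

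Kif23, the kinesin of the centralspindlin complex that organises the midzone, read 9.80, 9.66 and 9.69 in DMSO and 8.92, 9.42 and 9.26 in GDC-0623. It fell by 0.52 ± 0.124 (adjusted p = 0.0171), while its centralspindlin partner Racgap1 stood at −0.16 (adjusted p = 0.375). Another Kif23 probe set fell by 0.64 (adjusted p = 0.0142), and a weak one at a mean level of 2.90 stood at 0.36 (adjusted p = 0.0590). The mean of the Kif23 probe sets did not pass. Ncapg, a condensin I subunit, read 8.45, 8.59 and 8.55 in DMSO and 7.91, 8.20 and 8.20 with the drug and fell by 0.43 ± 0.099 (adjusted p = 0.0147). The other condensin members, Ncaph, Smc2 and Smc4, stood between −0.25 and −0.12 and did not pass the test. Espl1, separase, read 9.39, 9.44 and 9.52 in DMSO and 8.84, 9.11 and 9.28 in GDC-0623 and fell by 0.37 ± 0.113 (adjusted p = 0.0460). The Bub1 call held when each of the 6 arrays was left out in turn. Without 72h DMSO replicate 1 the adjusted p was 0.0519 for Aurka and 0.0685 for Kif23, and without 72h DMSO replicate 2 it was 0.0517 for Cenpa and 0.0630 for Ncapg. Ncapg also missed without 72h DMSO replicate 3 (0.0519), and Espl1 missed without any array other than GDC-0623 replicate 3 (0.0844 to 0.141).

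Pttg1 went the other way. It read 10.72, 10.78 and 10.75 in DMSO and 11.36, 11.21 and 11.25 in GDC-0623, with tight groups far apart, and rose by 0.52 ± 0.077 (adjusted p = 0.00161), or 1.44-fold. Replicate 1, the lowest array for every other member, was its highest. The call held without each array in turn. Its probe set and those of Bub3, Cdca8, Nek2 and Prc1 carry a suffix for probes that can match transcripts of more than 1 gene. They are the 5 in the list with this mark, so part of the signal of each could come from a related sequence. A second Pttg1 probe set, with no such mark and a mean level of 9.02, also rose (0.28 at 24 h and 0.30 at 72 h, adjusted p = 0.0360 and 0.0405). The remaining probe set, at a mean level of 4.90, did not pass (−0.20 and −0.06), and averaging all 3 took the adjusted p to 0.106 and 0.0537. Securin binds and restrains separase, the product of Espl1, until the APC/C marks it for destruction. The APC/C activator Cdc20 stood at −0.25 (adjusted p = 0.160) and its ubiquitin-conjugating enzyme Ube2c stood at −0.37 (adjusted p = 0.0647).

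**Figure D3:**
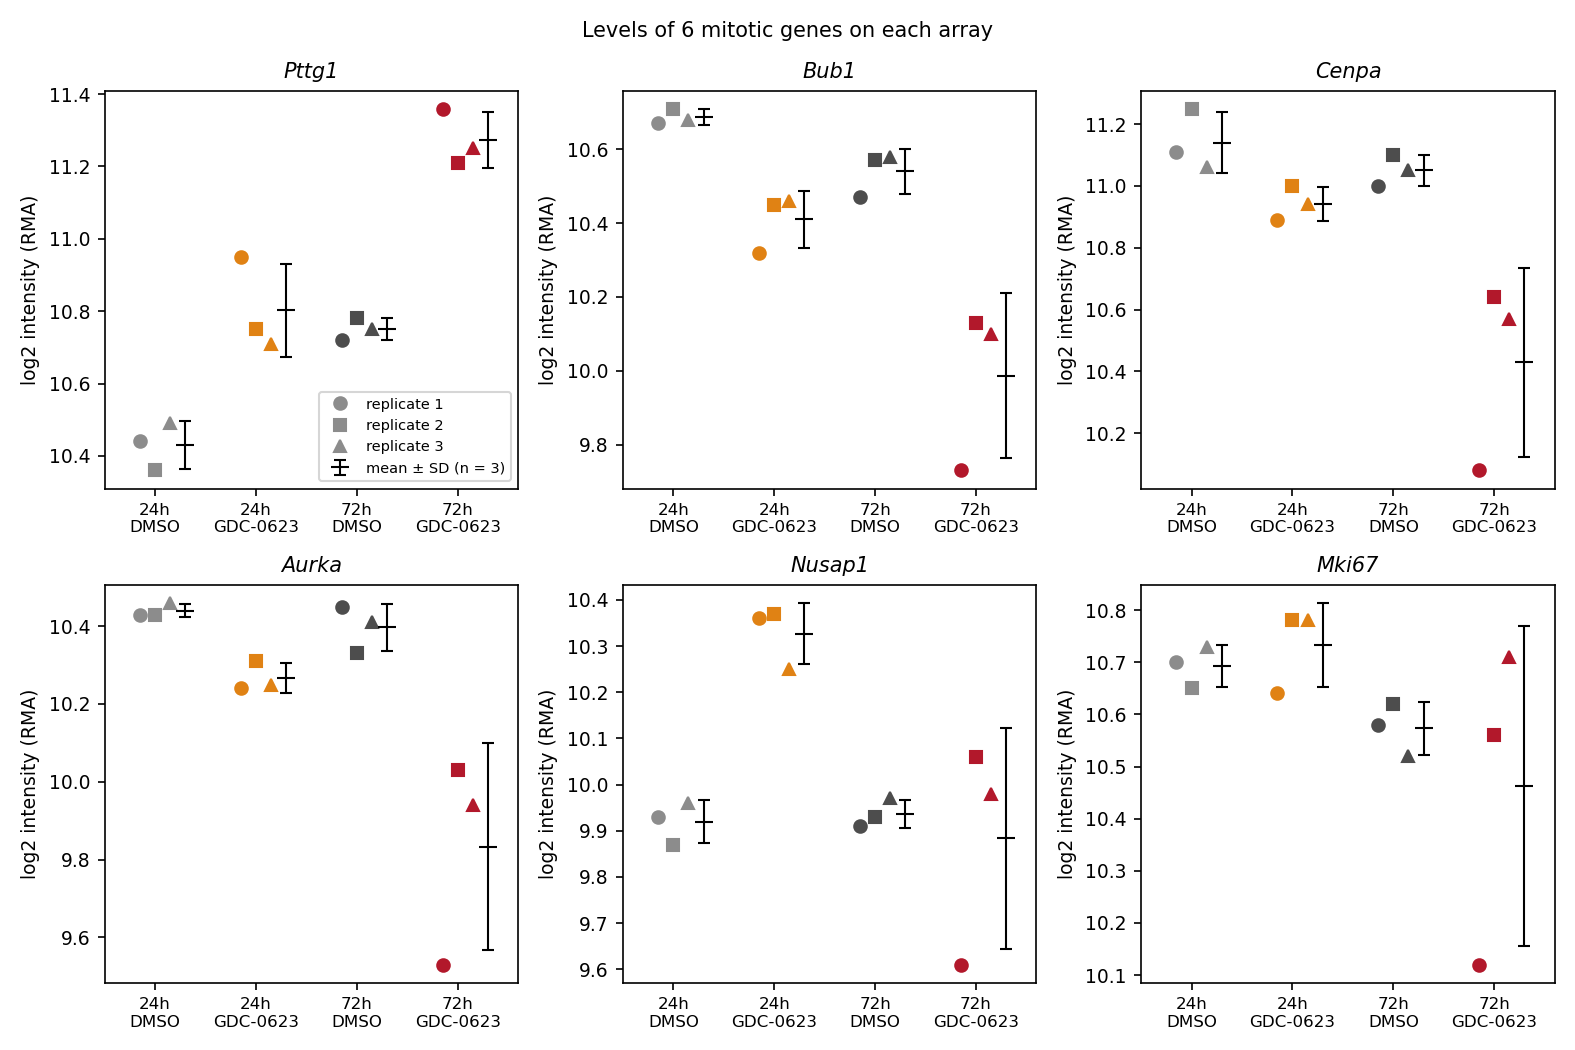
Log2 intensity (vertical axis) of 6 genes on each array by group (horizontal axis), with symbols for replicates 1 to 3 and bars for the mean ± SD of 3 arrays. The vertical axes differ in range and do not start at 0. Pttg1 is higher with GDC-0623 at both times, Bub1 is lower at both, Cenpa and Aurka separate most at 72 h, Nusap1 is higher at 24 h, and Mki67 overlaps between drug and DMSO.

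The genes most used as marks of proliferation did not pass the test at either time. Mki67, the antigen Ki-67 that coats mitotic chromosomes, read 10.70, 10.65 and 10.73 in 24h DMSO and 10.64, 10.78 and 10.78 in 24h GDC-0623, and 10.58, 10.62 and 10.52 in 72h DMSO against 10.12, 10.56 and 10.71 in 72h GDC-0623. The treated arrays spanned the controls both times, and the 72 h change was −0.11 with a 95% interval from −0.42 to 0.20. Top2a, topoisomerase II alpha, read 11.83, 11.83 and 11.88 in 72h DMSO and 11.50, 11.77 and 11.84 with the drug, a change of −0.14 with an interval from −0.37 to 0.08. At 24 h it read 11.97, 11.92 and 11.93 in DMSO and 11.82, 11.96 and 11.97 with the drug. Cdk1 was lower on every treated array, with 11.62, 11.68 and 11.63 against 11.44, 11.52 and 11.48 at 24 h, and 11.43, 11.51 and 11.55 against 11.10, 11.36 and 11.37 at 72 h. Its changes of −0.16 and −0.22 had adjusted p of 0.129 and 0.146. Plk1, the Polo kinase, read 9.51, 9.55 and 9.61 in 72h DMSO and 9.20, 9.53 and 9.54 in 72h GDC-0623, with overlap (−0.13, adjusted p = 0.441). At 24 h its groups overlapped too, at 9.76, 9.81 and 9.86 against 9.66, 9.87 and 9.79. Foxm1, a transcription factor of G2 genes, stood at 0.01 and −0.05.

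By role, the 72 h medians ran from −0.41 for the mitotic kinases to −0.10 for the mitotic entry genes, which included none that passed. All 5 checkpoint genes and all 3 passenger complex genes lay below DMSO on every treated array, with medians of −0.25 and −0.23, where 23.7% of all genes did. Of the kinases, Aurkb (−0.44, adjusted p = 0.0594) and Nek2 (−0.41, adjusted p = 0.0769) came close to the threshold, as did Mad2l1 (−0.32, adjusted p = 0.0603) of the checkpoint and Cdca8, borealin (−0.38, adjusted p = 0.0636). Ube2c (adjusted p = 0.0647), Tpx2 (−0.29, adjusted p = 0.0696) and Smc4 (−0.25, adjusted p = 0.0755) were nearer to it than Nek2. Of the fits that left out an array, Aurkb (−0.56, adjusted p = 0.0266), Mad2l1, Tpx2 and Cdc25c passed in the one without GDC-0623 replicate 2. Nek2, Cdca8, Ube2c and Ect2 passed in the one without GDC-0623 replicate 3. A second probe set of Aurkb (−0.61, adjusted p = 0.0223), of Nek2 (−0.55, adjusted p = 0.0198) and of Cdca8 (−0.42, adjusted p = 0.0253) passed over all arrays. The Aurkb probe set read here is one of 6 in the list marked as holding probes shared with other sequences. Its second probe set carries the same mark as that of Pttg1, of probes that can match transcripts of more than 1 gene. The 6 kinesins ranged from −0.52 for Kif23 to 0.00 for Kif4, and the kinetochore genes from −0.62 for Cenpa to 0.05 for Spc25.

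Leaving out 72h GDC-0623 replicate 1 shrank the shift and kept most calls. The median over the members became −0.09 (all genes −0.025), with 38 of 50 values negative. Bub1 (−0.43), Cenpa (−0.45), Aurka (−0.41), Kif23 (−0.38) and Ncapg (−0.33) still fell and Pttg1 (0.48) still rose, with adjusted p from 0.00423 to 0.0279, whereas Espl1 did not pass (−0.26, adjusted p = 0.0954). In all genes 11.5% were then called higher and 10% lower. The medians by role became 0.02 for mitotic entry, −0.23 for the kinases, −0.16 for the checkpoint and between −0.17 and −0.03 for the others. Replicates 2 and 3 lay below all 72h DMSO arrays for the same 28 members as the whole group did, against 27.7% of all genes. Replicate 1 lay below them for 49 members, so leaving it out could have added only Pttg1 to that set. Mki67, Foxm1, Ccna2 and Nusap1 were then among the members with values above 0.

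**Figure D4:**
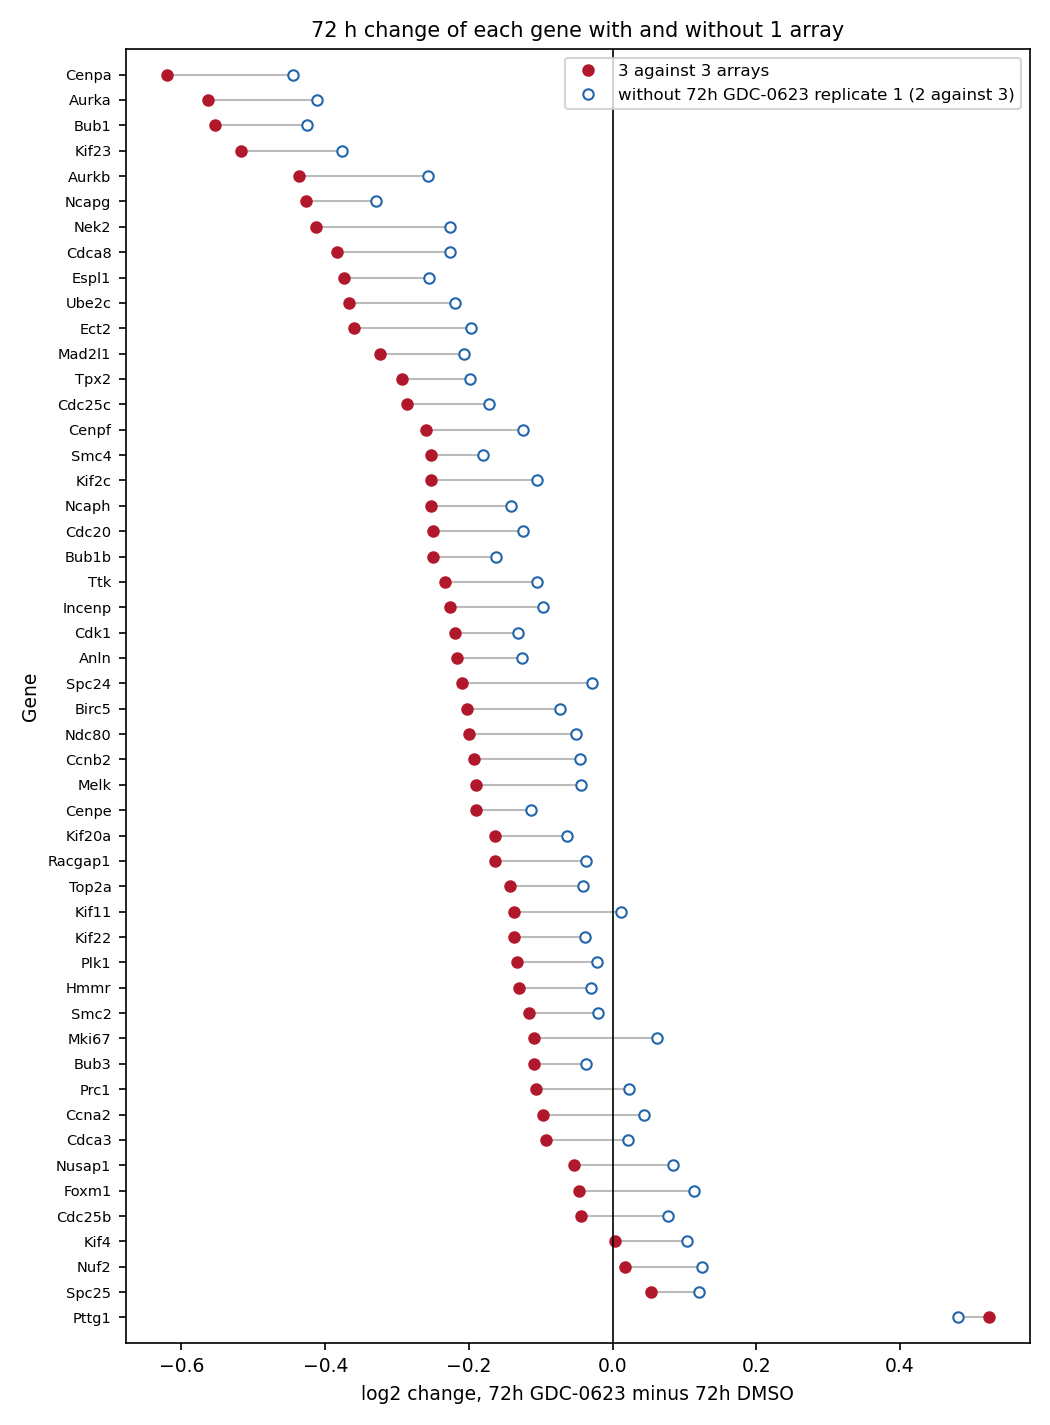
Log2 change of each of the 50 genes at 72 h, GDC-0623 minus DMSO (horizontal axis), ordered by the change over all arrays (filled points) and shown again without 72h GDC-0623 replicate 1 (open points). The open points lie to the right of the filled ones for every gene except Pttg1, and the median moves from −0.21 to −0.09.

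The difference between the 72 h and the 24 h effect was tested over all 12 arrays and passed for 0 of 50 members in limma, where 1.62% of genes were called higher and 1.46% lower. At an unadjusted p under 0.05, 12 members (24%) were lower and none was higher, against 9.5% and 7.55% of all genes, and the median difference was −0.22 (all genes −0.01). The largest was that of Nusap1 (−0.46 ± 0.139, adjusted p = 0.125), which had risen at 24 h and stood at −0.05 at 72 h, followed by Cenpa (−0.42), Kif23 (−0.41), Cdc25b (−0.39) and Aurka (−0.39). Nusap1 passed without 72h GDC-0623 replicate 2 and with a trended and robust prior, as the 1 member called in each. Without 72h GDC-0623 replicate 1 the median difference was −0.07. The 24 h and 72 h comparisons share no arrays. Over the 50 genes their changes had Pearson's r = 0.735 and Spearman's rho = 0.687 (r = 0.786 over all genes), which is a description across genes and not across replicates. Nusap1, Cdc25b, Spc25 and Anln were above 0 at 24 h (0.41, 0.35, 0.33 and 0.09) and at −0.05, −0.04, 0.05 and −0.22 at 72 h.

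Levels also moved with time in culture. In DMSO, 12 members were lower and 1, Pttg1, was higher at 72 h than at 24 h, or 24% and 2%, where 5.14% of all genes were called lower and 8.41% higher. The median was −0.14 (all genes −0.02), and 45 of 50 values were negative, against 10228 of all 18193 genes. Birc5, survivin, the subunit that targets the passenger complex to centromeres, read 11.51, 11.61 and 11.51 at 24 h and 11.03, 10.99 and 10.96 at 72 h. The time points were far apart, and Birc5 fell by 0.55 ± 0.062 (adjusted p = 0.00158). Spc24 fell by 0.46 (from 8.20, 8.22 and 8.28 to 7.75, 7.69 and 7.88), Foxm1 by 0.38 (8.20, 8.32 and 8.32 to 7.83, 7.90 and 7.96), the chromokinesin Kif4 by 0.37 (9.22, 9.19 and 9.19 to 8.85, 8.83 and 8.80) and the spindle kinesin Kif11 by 0.32, with no overlap for any of them. The others that fell were Ccna2, Plk1, Nek2, Melk, Cenpe, Nuf2 and Hmmr. Leaving out any 1 array left 6 or 7 calls, and the share of all genes called in those fits was not computed. Plk1, Nek2, Melk, Cenpe and Hmmr were lost each time, and Pttg1 without 24h DMSO replicate 2 or 72h DMSO replicate 2.

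With GDC-0623, 8 members were lower and Pttg1 was higher at 72 h than at 24 h (16% and 2%), against 3.11% and 5.79% of all genes. Of the 50 values 49 were negative, against 10525 of all 18193 genes (median −0.35, all genes −0.03). Birc5, Spc24, Kif11, Kif4 and Hmmr were called lower in both, 5 of the 8 here and of the 12 in DMSO, and Bub1b, Spc25 and Kif23 fell in addition. Spc24 had the largest change, −0.68 ± 0.144 (adjusted p = 0.0237), from 8.13, 8.26 and 8.33 to 7.20, 7.74 and 7.75. Pttg1 rose by 0.47 ± 0.091 (adjusted p = 0.0160), and was called higher in all 4 comparisons, which share arrays. Its lowest reading was in 24h DMSO (10.36) and its highest in 72h GDC-0623 (11.36), and the 24h GDC-0623 and 72h DMSO arrays overlapped in between (10.71 to 10.95 and 10.72 to 10.78). These calls depended on single arrays. Without 72h GDC-0623 replicate 1, 4 remained (Birc5, Spc24, Kif11 and Pttg1, median −0.22). In that fit 1.62% of all genes were called lower and 4.58% higher. Without 24h GDC-0623 replicate 1 the number was 5, and without 24h GDC-0623 replicate 2 or 3 it was 0, whereas without 72h GDC-0623 replicate 2 it was 14. The share of all genes was not computed for these other fits.

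Of the surrounding cell cycle lists, DNA replication and G1/S genes held more calls than the mitotic members. The shares called among all genes, against which each list below is to be read, were 8.23% lower and 13.3% higher at 24 h, 12.4% and 13.8% at 72 h, and 10% and 11.5% at 72 h without replicate 1. At 24 h 10 of 32 fell and none rose (median −0.26), and at 72 h 15 fell (median −0.39), or 13 without replicate 1. Cdt1, which licenses origins, fell by 0.65 and 1.05, and thymidine kinase, Tk1, fell by 0.59 at 24 h. Of 46 other G2/M transcripts, 7 fell and 1 rose at 24 h (median −0.09), and 13 fell and 1 rose at 72 h (median −0.22), or 11 and 1 without replicate 1. Mybl2, the B-Myb activator of G2 genes, had the largest change of that list. It read 8.66, 8.67 and 8.54 in 24h DMSO and 7.54, 7.95 and 8.05 in 24h GDC-0623, then 8.06, 8.18 and 8.16 in 72h DMSO and 6.81, 7.29 and 7.36 in 72h GDC-0623. It fell by 0.78 ± 0.123 and 0.98 ± 0.137 (adjusted p = 0.00239 and 0.00125). The ATPase Trip13, which remodels Mad2, fell by 0.60 and 0.87, and the APC/C inhibitor Fbxo5, Emi1, fell by 0.39 and 0.55. The scaffold Iqgap3 rose by 0.56 at both times. At 72 h Pimreg (−0.69) and Zwilch (−0.66) fell as well.

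Among the regulators, read against the same shares of all genes, 3 of 14 DREAM and MMB subunits fell at 24 h (E2f4, Tfdp1 and Nfyb). At 72 h 5 fell (E2f4, E2f5, Tfdp1, Nfyb and Lin9). Nfyb, the NF-Y subunit, stood at −0.29 and −0.53. The signal of E2f4 was low, with both group means at 24 h under 6. Rbl2, the pocket protein p130 of quiescent cells, rose by 0.36 at 24 h. Of 14 G2/M brakes and phosphatases, the checkpoint kinase Chek1 fell by 0.42 and 0.59 and Cdc14a by 0.38 and 0.49. Cdc25a (−0.31) fell and Cdc14b (0.31) rose at 24 h, and Chek2 (−0.31) fell at 72 h. Without replicate 1, 4 of the first list and 1 of the second were lower at 72 h. Of 15 APC/C subunits, Anapc2 rose by 0.49 and 0.50, and at 72 h Anapc13 rose by 0.34 and Cdc26 fell by 0.27, whereas without replicate 1 that list held 1 higher and 0 lower at 72 h. Of 17 CENP and Mis12 subunits, Cenpp rose by 0.68 and 0.55, Cenpt rose (0.38) and Nsl1 fell (−0.39) at 24 h, and Cenph (−0.48) and Cenpq (−0.45) fell at 72 h. Of 12 cohesin genes, Pds5a fell at 72 h (−0.43), and of 4 further condensin subunits none passed in limma at either time (Ncapd3 and Ncapg2 at 72 h had an unadjusted p under 0.05).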

How the data were processed

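RNA of 12 MC38 samples (4 groups of 3 arrays) had been labelled by a 3′ IVT kit and hybridised to Affymetrix Mouse Genome arrays. The deposited table holds log2 intensities that the authors made with RMA, so background correction, quantile normalisation and probe summary were done before deposit, and a shift common to all genes is removed. Per the labels, input RNA had passed an integrity limit. Of 45101 probe sets, 64 controls were left out. Of the 45037 tested, 34945 had 1 gene symbol, 932 several and 9160 none in the platform annotation, and each gene was read from the probe set with the highest mean over the 12 arrays. Of the members, 34 had more than 1 of the 117 probe sets. Groups were compared with limma 3.58.1 (R 4.3.3), with 6 arrays for each pair of groups and all 12 for the difference of effects, Benjamini-Hochberg adjustment over all probe sets, two-sided, and a threshold of 0.05. SE is the moderated standard error. The script was tested on simulated data.

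The members and lists were chosen with earlier results of these data known. All members may be named by role, and array values are given for those called with the drug and for Mki67, Top2a, Cdk1 and Plk1. Those of Prc1, Birc5, Spc24, Foxm1, Kif4 and Mybl2 were added after their values were seen. For each time, a pathway list names up to 4 called genes with the largest change and a mean of at least 6. Any others are named where 5 or fewer were called, and a gene named for 1 time may be given at both. Some other members, and some markers, were also named by their values, such as members near the threshold or with another probe set that passed. The number of arrays limits the precision. Alternatives were 1 fit over 12 arrays, a replicate block, repeated quantile normalisation, a low-value filter (5 on at least 3 arrays), a shift by hybridization controls, a trended and robust prior, array weights, the mean of a gene's probe sets, a minimum fold of 1.5 and leaving out each array.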

Additional observations from a re-analysis of the deposited data

How the results depend on the processing

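No called member changed sign under any alternative run. The share of all genes called was computed only for the main fits and for those without 72h GDC-0623 replicate 1. Counts from the other runs, here and in the next paragraph, therefore have no background beside them. They do not show whether members were called more often than other genes. At 24 h the members called lower numbered 0 with 1 fit over 12 arrays, 8 with the filter on low values, 10 with the trended and robust prior, 5 with the mean of a gene's probe sets (median −0.0553) and 0 after the shift by hybridization controls (median 0.13). Leaving out 1 array gave 0 to 2 lower and medians from −0.0425 to 0.0183. At 72 h they numbered 17 with 1 fit, 13 with the filter, 13 with the prior and 10 with the mean of probe sets (0 higher), and 3 to 10 without 1 array. For the difference of effects, the prior gave 1 lower, the shift a median of −0.36, and leaving out 1 array gave 0 to 1 lower and medians from −0.285 to −0.0733. With time in DMSO, 4 were lower with 1 fit, 19 with the filter, 3 after the shift (median −0.11) and 25 with the prior (2 higher), and 6 to 7 without 1 array (0 to 1 higher, medians −0.14 to −0.13). With time in GDC-0623, 33 were lower with 1 fit, 16 with the filter, 34 after the shift (0 higher) and 20 with the prior, and 0 to 13 without 1 array (0 to 1 higher). A minimum fold of 1.5 left 0 higher and 0 lower at 24 h, 0 and 1 at 72 h, 0 and 0 with time in DMSO, and 0 and 3 with time in GDC-0623. The cause of these differences was not tested.

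The arrays share only replicate numbers, and the deviations of same-numbered arrays correlated at 0.0135 to 0.289. The highest value was that of replicate 1 of 24h and 72h GDC-0623, the number of the array that stood apart, and the next was 0.159. A replicate block gave 7 members lower with time in DMSO and 21 with time in GDC-0623, against 12 and 8, and kept the drug counts near theirs (4 higher and 2 lower at 24 h, 1 and 8 at 72 h). All members had group means of at least 6.90, above the range of the epithelial markers. Most member changes were under 1.5-fold, and an adjusted p that missed the threshold does not show equal levels.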
